A study of Mus musculus with 9 samples.

Results

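The 71 genes described here encode parts of the motile cilium, proteins that assemble it and regulators that switch its genes on, and they were measured in whole embryonic forebrain with intact or heterozygously deleted *Npas3*. Members were the genes with a *Dnah*, *Dnai*, *Cfap*, *Rsph*, *Dnaaf*, *Drc* or *Spag* symbol followed by a number, together with *Foxj1*, *Hydin*, *Ccdc39*, *Ccdc40* and *Mcidas*, whose reads summed to 90 or more over the 9 embryos. Of the 55401 genes in the table, 76 had such a symbol and 71 reached the minimum. The 5 that did not were *Cfap99*, *Dnah12*, *Rsph14*, *Rsph6a* and *Spag6*, with 0 to 22 counts per embryo. The symbol rule also took in *Spag4*, *Spag5*, *Spag7* and *Spag9*, which are named after sperm antigens and are known mainly for work outside cilia, and these 4 were followed separately from the other 67.

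The wild-type group (WT, *Npas3*+/+) held 5 embryos and the heterozygous group (HET, *Npas3*+/-) held 4, all female and taken on embryonic day 16 to 17. The HET animals carried a constitutive deletion of 1 *Npas3* allele in every cell on a C57BL/6J background. They came from crosses of HET mice with HET or C57BL/6J mice, and the WT embryos were littermates. Embryos are called by the number in their label, and the labels give neither the litter nor the exact day of an embryo. The labels name astrocytes as the cell type, but the tissue was bulk forebrain, and 13 neuron markers summed to between 6984 and 8228 CPM, the unit of counts scaled to library size, in every embryo.

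A motile cilium beats because dynein motors, arranged in outer and inner arms, slide neighbouring microtubules of its axoneme past each other. Radial spokes, the nexin-dynein regulatory complex (N-DRC) and the central apparatus coordinate the motors, and dynein assembly factors build the arms in the cytoplasm before they are carried into the cilium. In the developing forebrain the epithelium of the choroid plexus, where cerebrospinal fluid is made, bears many cilia per cell, whereas ependymal cells acquire most of theirs around and after birth. Most other forebrain cells carry a single primary cilium, which does not beat and lacks most of these parts.

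Promoters of cilia genes often hold an X-box, the paired DNA element that RFX transcription factors bind. RefSeq promoters on GRCm38.p6, from 250 bases before to 50 bases after the transcript start, were matched for 57 of the 71 members. A gene with several promoters was counted once, as holding a site if any of them did. An X-box on either strand was held by 8 of the 57, or 14.0%, against 1.75% of the 27025 genes with a promoter. The half-site GTTGCC, which an X-box can contain, was present on either strand in 22 of the 57, or 38.6%, against 14.1% of all these genes. The forkhead core GTAAACA, of the kind that FOXJ1 and related factors bind, was present in 3 of the 57, or 5.26%, against 4.05% of all. These sites are matches of letters and were not tested for binding. The X-boxes are shown because the share of members that hold one was above that of all genes with a promoter. They are in capitals, in the direction of the gene, with up to 20 lower case bases on each side, ending at the transcript start:
*Cfap298*, first X-box: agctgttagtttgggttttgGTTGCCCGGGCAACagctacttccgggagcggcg
*Cfap298*, second X-box: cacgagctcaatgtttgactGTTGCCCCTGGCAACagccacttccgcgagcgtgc
*Spag16*: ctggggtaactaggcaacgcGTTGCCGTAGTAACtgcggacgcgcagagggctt
*Cfap58*: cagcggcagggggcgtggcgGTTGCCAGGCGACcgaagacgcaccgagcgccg
*Cfap44*: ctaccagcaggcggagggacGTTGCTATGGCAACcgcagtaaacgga
*Hydin*: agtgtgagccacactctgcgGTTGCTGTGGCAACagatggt
*Cfap45*: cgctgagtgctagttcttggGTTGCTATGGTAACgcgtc
*Dnaaf2*: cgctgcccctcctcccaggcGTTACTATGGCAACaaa
*Rsph3b*: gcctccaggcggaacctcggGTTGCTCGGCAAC
The first bases of the sites stood 188 and 69 bases before the start of *Cfap298*, 103 before that of *Spag16*, 59 before that of *Cfap58*, 27 before that of *Cfap44*, 21 before that of *Hydin*, 19 before that of *Cfap45* and 17 before that of *Dnaaf2*, while that of *Rsph3b* lay past the start. The printed stretch of *Hydin* is chr8:110266936-110266976 on the plus strand and that of *Cfap44* is chr16:44394752-44394798 on the plus strand. The members with an X-box did not share one expression pattern, as *Cfap44* ranged from 4.15 to 20.2 CPM over the embryos and *Cfap298* from 14.1 to 18.4 CPM. Genes of primary cilium transport, a list of 56 of which 49 were matched, held an X-box in 12.2% and the half-site in 44.9%.

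Counts per embryo totalled 42640218 to 62830060, and the smallest level that such depth can show was set at 3 counts, which is 0.0473 to 0.0722 CPM. *Npas3* itself was at 40.8, 35.4, 29.7, 38.3 and 37.0 CPM in WT embryos 5, 15, 16, 41 and 43 and at 27.9, 28.2, 34.1 and 27.8 CPM in HET embryos 5, 6, 7 and 24. HET 7 lay among the WT embryos, and edgeR gave a log2 fold change of −0.30 (adjusted p = 0.877, and 0.0134 without adjustment). *Ttr*, the transcript of the choroid plexus protein transthyretin, stood at 2536, 2127 and 2631 CPM in WT 15, 16 and 41, at 466.6 CPM in HET 24, and at 0.770 to 11.7 CPM in the other 5 embryos. The embryos thus fell into separate clusters by *Ttr*, and 3 of the 4 with the most were WT. For that reason no correlation with *Ttr* was computed, and its relation to the members is given by the order of the embryos.

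In the comparison of HET with WT forebrain, 0 of the 70 members tested passed an adjusted p of 0.05, by edgeR or by DESeq2. Of all genes tested, 0.14% passed by edgeR and 0.393% by DESeq2. The lowest adjusted p of a member was 0.788 by edgeR and 0.225 by DESeq2. At an unadjusted p under 0.05 from edgeR, 11 members, or 15.7%, were lower in HET and 0 were higher, against 3.09% of all genes lower. The fitted log2 fold change was under 0 for 62 members, or 88.6%, against 51.5% of all genes. The median log2 fold change was −0.30 over the members and −0.005 over all genes, and leaving out the 4 *Spag* members known outside cilia moved it to −0.36. WT and HET embryos overlapped for every member tested. Groups that did not overlap made up 1.85% of all genes, so 0 of 70 members is near that share.

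The WT group was itself divided for most members. For 49 of the 70 members tested, or 70.0%, WT 15, 16 and 41 all lay above WT 5 and 43, against 15.6% of all genes. For 26 of them, or 37.1%, the 4 highest embryos were exactly the 4 with the most *Ttr*, against 3.11% of all genes. *Cfap73*, whose 1 to 40 counts per embryo were too few for the test, had the same pattern. Among these 27 members WT 15 was the highest embryo for 20, HET 24 was the fourth highest for 24, and HET 7 was the fifth highest for 15. In HET 24 the level was under the lowest of WT 15, 16 and 41 for 24 of the 27. HET 7 had the fifth most *Ttr* as well.

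**Figure D1:**
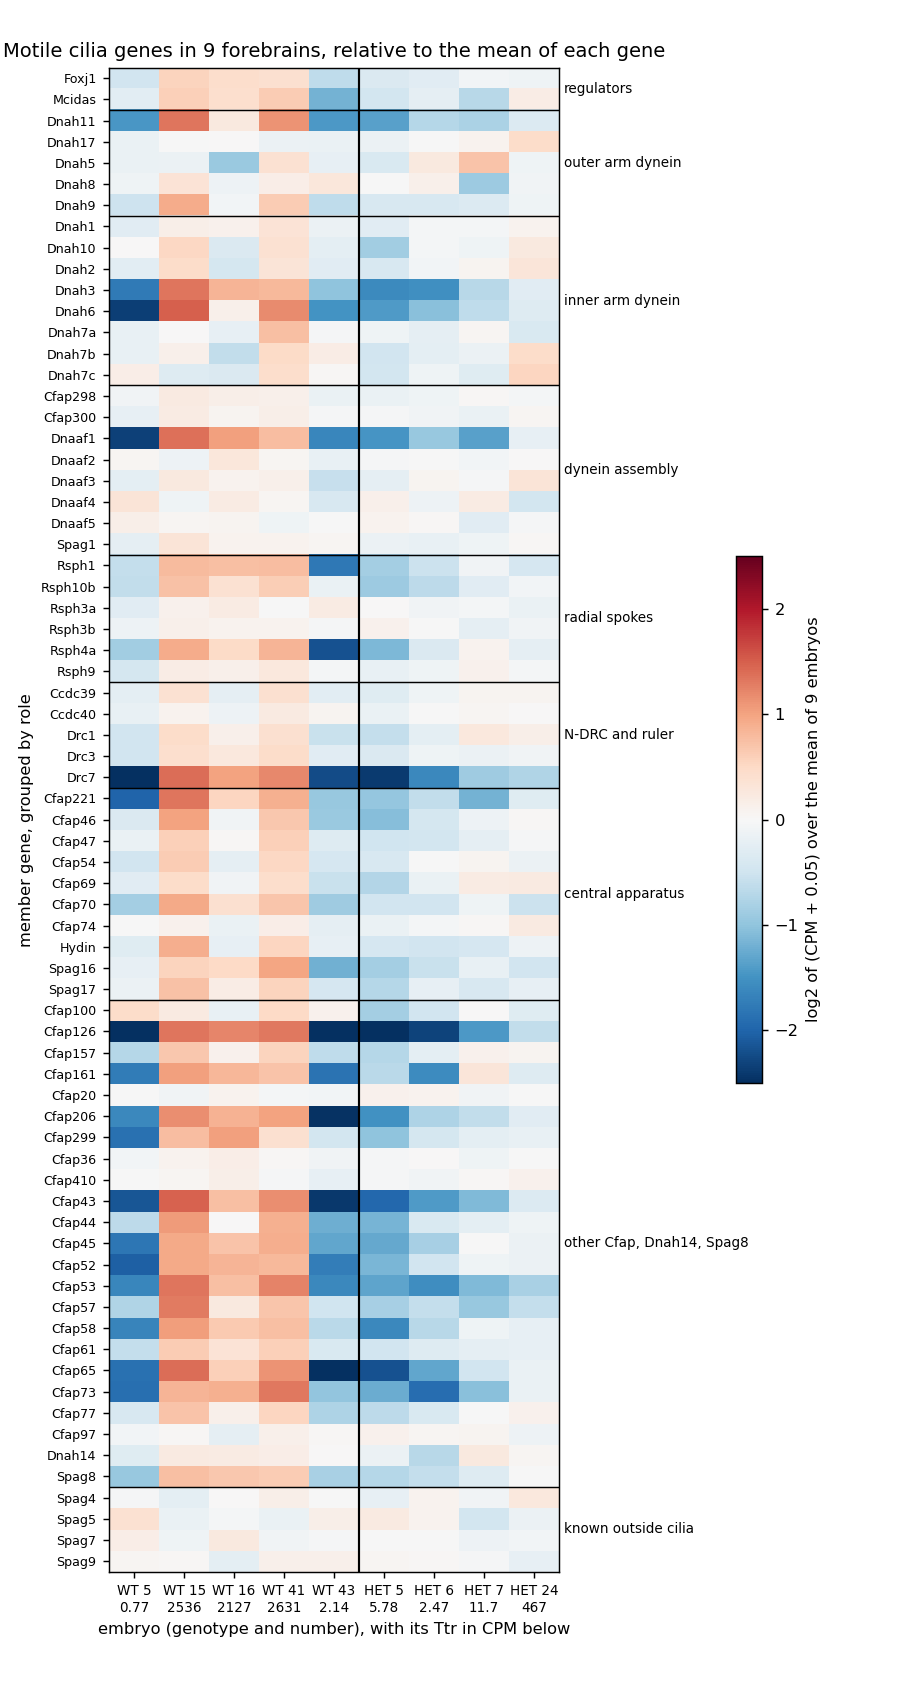
Level of each of the 71 members (rows, grouped by role) in each of the 9 embryos (columns), as the log2 of CPM plus 0.05 over the mean of that gene in all embryos, with colours capped at the ends of the scale. WT 15, 16 and 41, with 2127 to 2631 CPM of *Ttr*, lie above WT 5 and 43 in 50 of 71 rows, and the 4 *Spag* rows at the bottom stay pale.

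Summed over the 67 members left after those 4, expression was 453.0 CPM in WT 5, 715.3 in WT 15, 593.0 in WT 16, 684.0 in WT 41 and 451.4 in WT 43. The HET embryos 5, 6, 7 and 24 had 459.2, 493.5, 509.2 and 534.7 CPM. The highest sums were thus those of WT 15, 41, 16 and HET 24, and the lowest were those of WT 43 and 5. The 4 *Spag* members, by contrast, summed to 578.3 to 707.1 CPM in WT and 575.2 to 680.2 CPM in HET, with the lowest sums in HET 24 and WT 16. The 27 members with the *Ttr* order, chosen by that order, summed to 73.0 to 93.8 CPM in the 5 embryos with little *Ttr*, 112.2 CPM in HET 24 and 147.9 to 224.3 CPM in the 3 WT embryos. The 21 members without WT 15, 16 and 41 above WT 5 and 43 summed to 776.1 to 913.6 CPM in WT, lowest in WT 16, and 784.0 to 882.6 CPM in HET. These 21 included the 4 *Spag* members, which made up most of that sum in every embryo.

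**Figure D2:**
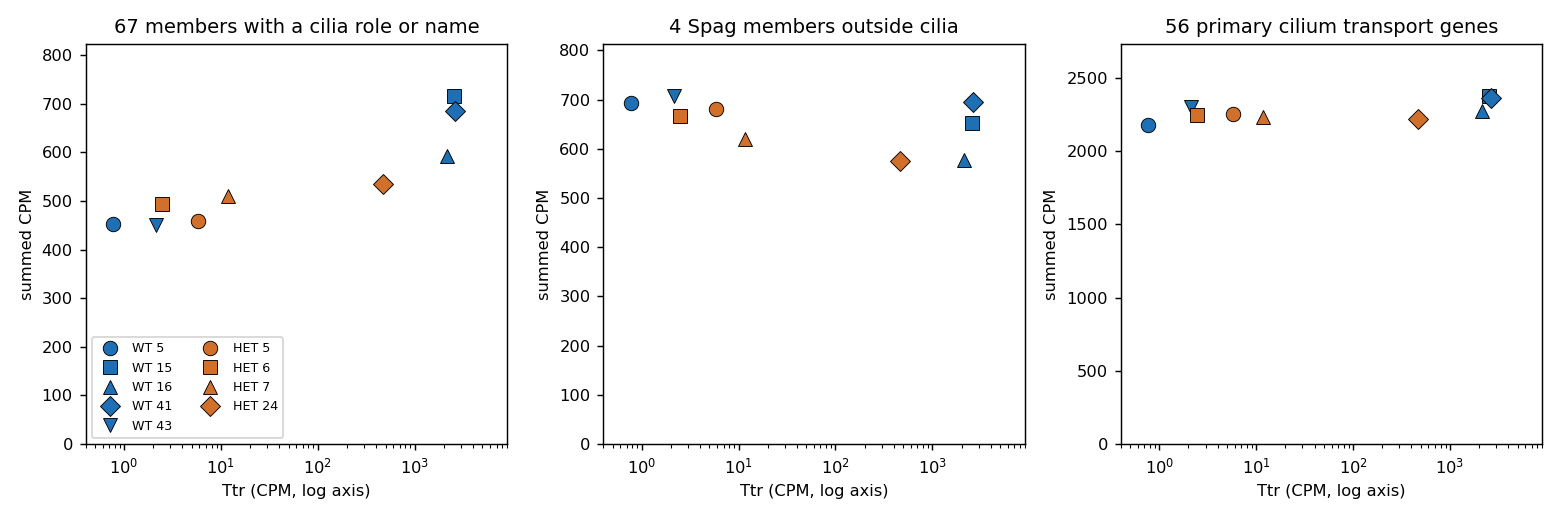
Summed CPM of the 67 members, of the 4 *Spag* members known outside cilia and of the 56 primary cilium transport genes, each against *Ttr* in CPM on a log axis, with 1 point per embryo (blue WT, orange HET). The left sum climbs from 451.4 to 715.3 CPM between the embryos with little and with much *Ttr*, while that of the primary cilium genes stays between 2177 and 2376 CPM.

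Markers of the choroid plexus moved with the members. Of 14 such markers, 0 were called, 11 were lower in HET at an unadjusted p under 0.05 from edgeR, and 12 had their highest levels in the same 4 embryos. Over all genes, 0.14% were called by edgeR, 3.09% were lower at such a p and 3.11% had that order. They summed to 2430 to 3002 CPM in WT 15, 16 and 41, 559.5 CPM in HET 24 and 28.3 to 56.9 CPM in the other 5. The markers *Otx2* and *Prlr* did not follow that order. Meningeal markers, 10 genes, also summed to more in WT 15, 16 and 41, at 79.6 to 106.0 CPM, than in the others, at 25.1 to 49.6 CPM. In bulk tissue, fewer ciliated cells and less cilia RNA per cell cannot be told apart.

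With a score made from 10 choroid plexus markers as a covariate in edgeR, 0 members were called, 26 of 70 were under 0 and the median log2 fold change was 0.08. Among the 2 WT and 3 HET embryos with under 100 CPM of *Ttr*, 0 members were called, 17 of the 67 that could be tested were under 0 and the median was 0.15. In that smaller comparison 43 of the 67 members turned from lower to higher in HET, and 16 were under 0 in all 3 fits. Most embryos with much *Ttr* were WT, so genotype and choroid plexus content cannot be told apart in these fits. Without the embryos that held much *Ttr*, the members were not lower in HET on balance, and no member passed the adjusted threshold in either direction. Among those 5 embryos each HET embryo had more *Ttr*, at 2.47 to 11.7 CPM, than WT 5 and 43, at 0.770 and 2.14 CPM, and their choroid plexus scores were 0.586 to 0.951 against 0.570 and 0.384. The part of this difference in the higher members was not tested.

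**Figure D3:**
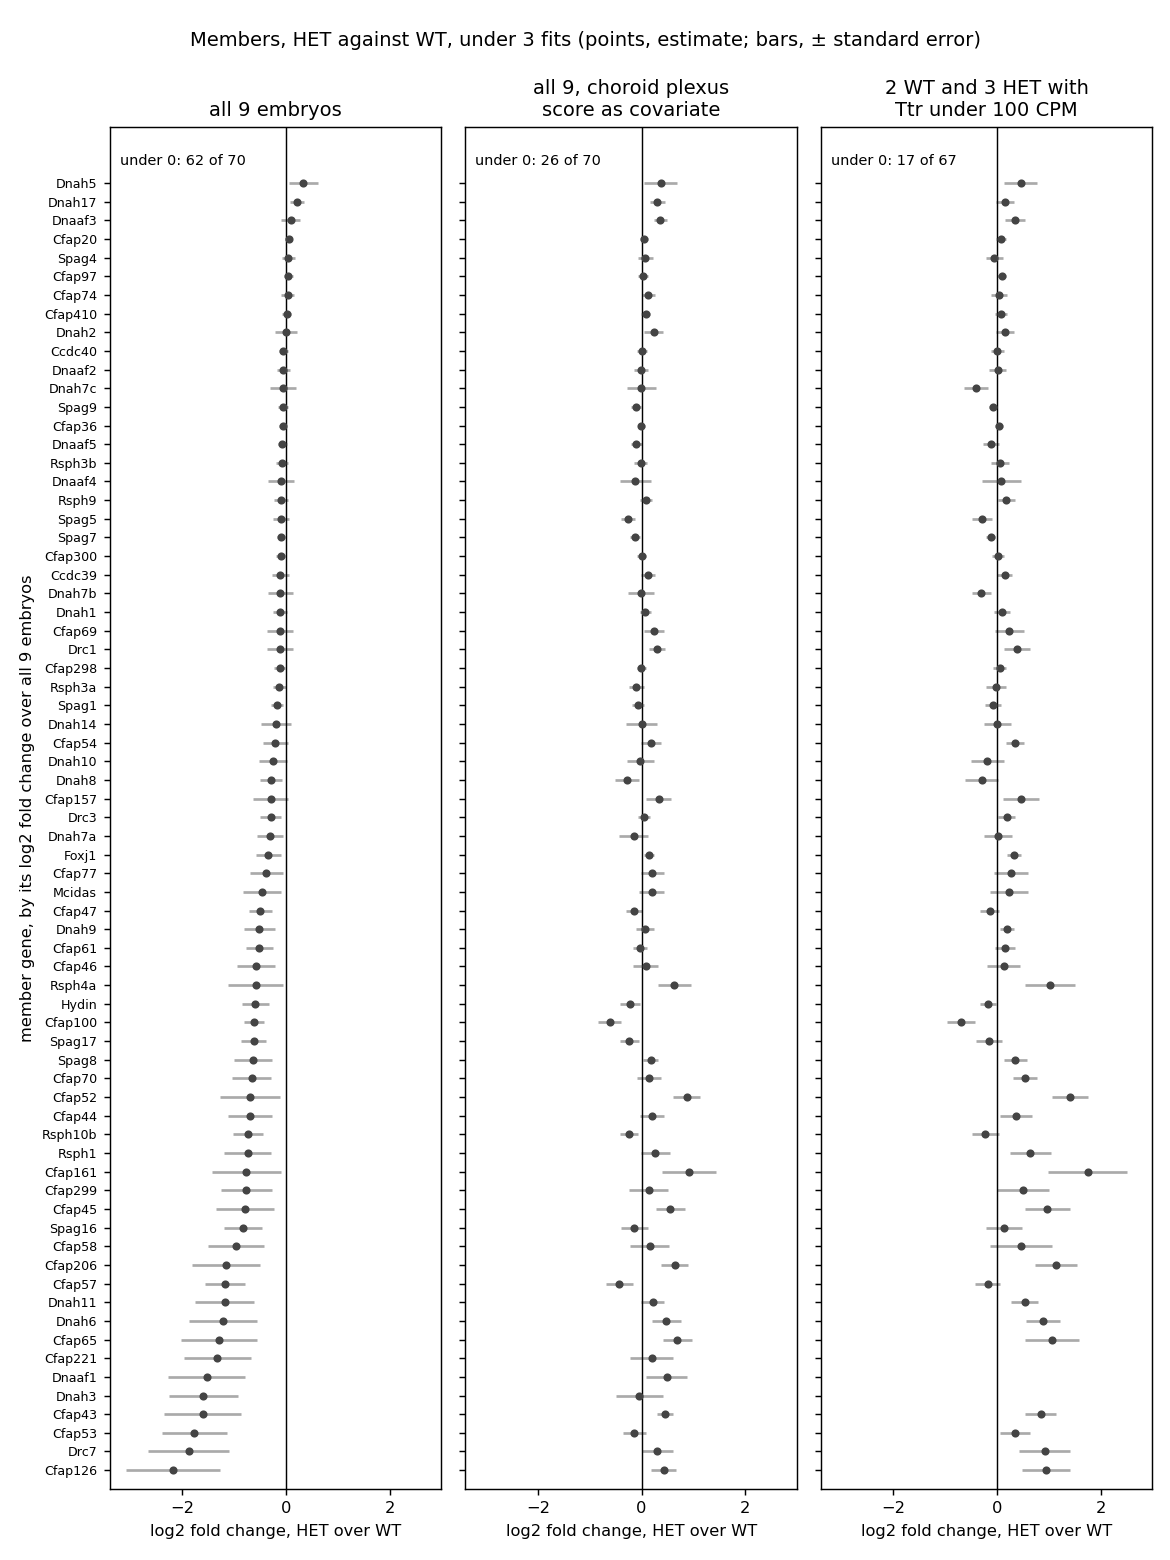
Fitted log2 fold change, HET over WT, of each member tested (points, with the standard error as bars) over all 9 embryos, with choroid plexus score as covariate, and in the embryos with *Ttr* under 100 CPM. Members lie left of 0 in the first panel (62 of 70) and mostly right of 0 in the others (26 of 70 and 17 of 67 under 0).

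The regulators showed the *Ttr* order in part. *Foxj1* (chr11:116330704-116335399, minus strand), the forkhead factor that activates motile cilia genes, had 15.4, 31.8, 29.1, 28.4 and 13.9 CPM in WT 5, 15, 16, 41 and 43. In HET 5, 6, 7 and 24 it had 16.7, 17.8, 20.5 and 20.03 CPM. The HET embryos lay between the divided WT embryos, above WT 5 and 43 and below the other 3, and HET 7 was as high as HET 24. The WT mean was 23.7 ± 8.40 CPM (SD, n = 5), and the HET mean was 18.8 ± 1.80 CPM (SD, n = 4). The log2 fold change of *Foxj1* was −0.34 (standard error 0.24, unadjusted p = 0.176 from edgeR). It was 0.14 with the choroid plexus covariate and 0.32 in the embryos with little *Ttr*. *Mcidas*, the coiled-coil protein that commits cells to make many cilia, was scarce, with 0.794, 1.48, 1.31, 1.53 and 0.398 CPM in the WT embryos and 0.693, 0.815, 0.579 and 1.11 CPM in the HET embryos. Its 4 highest embryos were those with the most *Ttr*.

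The outer arm chains did not move as a unit. *Dnah9* and *Dnah11*, heavy chains of the outer dynein arm, followed the *Ttr* order, while *Dnah5*, *Dnah8* and *Dnah17* did not. *Dnah11* (chr12:117877982-118199043, minus strand) had 1.23, 8.80, 4.09, 7.60 and 1.24 CPM in the WT embryos and 1.32, 2.07, 1.96 and 2.73 CPM in the HET embryos. HET against WT gave −1.19 on the log2 scale (standard error 0.56, unadjusted p = 0.0598 from edgeR), and it was 0.22 with the covariate. *Dnah9* was at 7.72, 21.3, 10.6, 17.3 and 7.18 CPM in WT and at 8.40, 8.45, 8.72 and 10.4 CPM in HET. In both genes WT 16 was well under WT 15 and 41, although its *Ttr* was close to theirs. *Dnah8* was 3.52 to 4.89 CPM in WT and 2.03 to 4.22 CPM in HET, with HET 7 the lowest of all. *Dnah5* and *Dnah17*, described after their values were seen, had the highest fitted log2 fold changes of all members, at 0.33 and 0.21, with unadjusted p values of 0.250 and 0.169 from edgeR.

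Among the inner arm chains, *Dnah6* (chr6:73017606-73221651, minus strand) held the widest spread at an appreciable level. It was at 1.80 and 3.31 CPM in WT 5 and 43, at 26.6, 10.3 and 21.4 CPM in WT 15, 16 and 41, and at 3.53, 4.56, 6.06 and 7.60 CPM in HET 5, 6, 7 and 24. All 4 HET embryos lay above WT 5 and 43 and below the other WT embryos. HET against WT gave −1.22 on the log2 scale (standard error 0.66, unadjusted p = 0.0908 from edgeR) over all embryos and 0.88 in the embryos with little *Ttr*. *Dnah3* followed the same order at a far lower level, 0.0722 to 0.995 CPM in WT and 0.0866 to 0.288 CPM in HET, with 3 to 45 counts per embryo (log2 fold change −1.60, unadjusted p = 0.0357 from edgeR). With the covariate it was −0.04, and its counts were too low for the test in the embryos with little *Ttr*. *Dnah1* and *Dnah2* were flatter, at 7.48 to 11.6 and 8.31 to 15.6 CPM in WT and 7.54 to 9.72 and 8.53 to 14.1 CPM in HET. *Dnah7a*, *Dnah7b* and *Dnah7c* share 38.6%, 30.0% and 46.8% of their 50-base words with another gene, so their separate levels are uncertain, and none of these 3 showed the *Ttr* order.

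Of the 8 assembly factors, 3 had the *Ttr* order, against 3.11% of all genes. For 5 of the 8, WT 15, 16 and 41 lay above WT 5 and 43, against 15.6% of all genes. *Cfap298* and *Cfap300*, which act in dynein arm assembly, were at 14.2 to 18.4 and 17.1 to 22.7 CPM in WT and at 14.1 to 16.2 and 17.5 to 20.3 CPM in HET. *Dnaaf5* was at 16.9 to 20.1 CPM in WT and 14.9 to 19.4 CPM in HET. In these 3 genes the highest embryo was under 1.5 times the lowest. *Cfap300* still had the *Ttr* order within that narrow range, as did *Dnaaf3* and *Dnaaf1*, both chosen after their values were seen. *Dnaaf3* ran from 3.42 to 6.41 CPM over the embryos. *Dnaaf1* was at 0.0481 and 0.110 CPM in WT 5 and 43 and at 0.804 to 1.24 CPM in WT 15, 16 and 41. In HET 24 it was at 0.384 CPM, and in the other HET embryos at 0.130 to 0.210 CPM. It had only 2 to 56 counts per embryo, and its level in WT 5 was under the smallest level set for that embryo, 0.0722 CPM. Exons of another gene cover 53.6% of the exonic bases of *Cfap298*, 71.4% of those of *Dnaaf2* and 96.6% of those of *Dnaaf4*. The gene with the largest overlap lies on the opposite strand for *Cfap298* and *Dnaaf2*, and on the same strand for *Dnaaf4*. Whether the counting used strand is not given in the sources used here. For *Dnaaf4*, strand would not separate its reads from those of the overlapping gene. The levels of these 3 are thus uncertain. Smaller overlaps of 20.7% for *Dnaaf1*, 16.9% for *Ccdc39*, 16.5% for *Dnaaf3*, 15.7% for *Spag17* and 15.7% for *Rsph10b* leave part of their counts uncertain. The same holds for overlaps of 10.6% for *Dnaaf5* and 10.5% for *Dnah3*.

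In the radial spokes, the T-shaped complexes that reach from the outer microtubules to the centre, *Rsph9* had 10.51 to 17.1 CPM in WT and 12.47 to 15.4 CPM in HET. *Rsph10b* had 1.78, 4.62, 3.61, 4.24 and 2.43 CPM in the WT embryos and 1.43, 1.72, 2.23 and 2.63 CPM in the HET embryos, which is the *Ttr* order. Its log2 fold change was −0.74 (standard error 0.29, unadjusted p = 0.0270 from edgeR), and it was −0.25 with the covariate and −0.23 in the embryos with little *Ttr*. *Rsph3a* and *Rsph3b* share 54.4% and 62.4% of their 50-base words with another gene. They were at 3.42 to 4.83 and 4.43 to 5.31 CPM in WT and at 3.71 to 4.20 and 4.13 to 5.26 CPM in HET.

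In the N-DRC, *Drc7* (chr8:95055103-95078141, plus strand) had 0.385 and 0.464 CPM in WT 5 and 43, 6.37, 4.85 and 5.58 CPM in WT 15, 16 and 41, and 0.411, 0.745, 1.26 and 1.40 CPM in HET 5, 6, 7 and 24. The lowest of WT 15, 16 and 41 was 10.46 times the higher of WT 5 and 43, and HET 24 was closer to the low embryos than to the high ones. Its log2 fold change was −1.88 (standard error 0.78, unadjusted p = 0.0345 from edgeR), but 0.31 with the covariate and 0.92 in the embryos with little *Ttr*. *Drc1*, another subunit, had 8.66, 16.6, 13.3, 16.1 and 8.21 CPM in WT and 8.01, 10.2, 14.7 and 13.4 CPM in HET, so HET 7 and 24 reached the range of the high WT embryos. *Ccdc39* and *Ccdc40*, which form the molecular ruler that spaces the dynein arms, had log2 fold changes of −0.11 and −0.05. The level of *Ccdc39* was 14.7 to 23.4 CPM in WT and 14.3 to 18.6 CPM in HET. For *Ccdc40* the WT mean was 24.1 ± 2.75 CPM (SD, n = 5), and the HET mean was 23.2 ± 1.58 CPM (SD, n = 4). *Ccdc40* was among the 16 members whose highest embryo was under 1.5 times the lowest.

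Of the 10 central apparatus members, 4 were lower in HET at an unadjusted p under 0.05 from edgeR, against 3.09% of all genes. For 9 of the 10, WT 15, 16 and 41 lay above WT 5 and 43, against 15.6% of all genes. *Hydin* (chr8:110266977-110610253, plus strand), the giant protein of the central apparatus whose loss causes hydrocephalus in mice, had 4.47, 10.46, 4.83, 8.08 and 4.79 CPM in the WT embryos and 4.16, 3.98, 4.15 and 5.05 CPM in the HET embryos. WT 15 and 41 stood clearly apart, and WT 16 was as low as WT 43. HET against WT gave −0.59 on the log2 scale (standard error 0.25, unadjusted p = 0.0403 from edgeR), which was −0.22 with the covariate and −0.18 in the embryos with little *Ttr*. *Spag16* and *Spag17*, central apparatus proteins despite their sperm antigen names, had log2 fold changes of −0.82 and −0.63 with unadjusted p values of 0.0453 and 0.0275 from edgeR. These were −0.14 and −0.24 with the covariate and 0.13 and −0.16 in the embryos with little *Ttr*. For *Spag16* the values were 2.38, 4.11, 3.94, 5.52 and 1.17 CPM in WT and 1.52, 1.86, 2.42 and 1.96 CPM in HET. The values of *Spag17* ran from 1.26 to 2.85 CPM in WT and from 1.02 to 1.48 CPM in HET. *Cfap54*, *Cfap69* and *Cfap74* had log2 fold changes of −0.21, −0.12 and 0.03, with 7.70 to 16.9, 6.03 to 12.4 and 6.47 to 8.45 CPM in WT and 8.16 to 11.3, 5.35 to 10.4 and 6.67 to 8.85 CPM in HET.

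**Figure D4:**
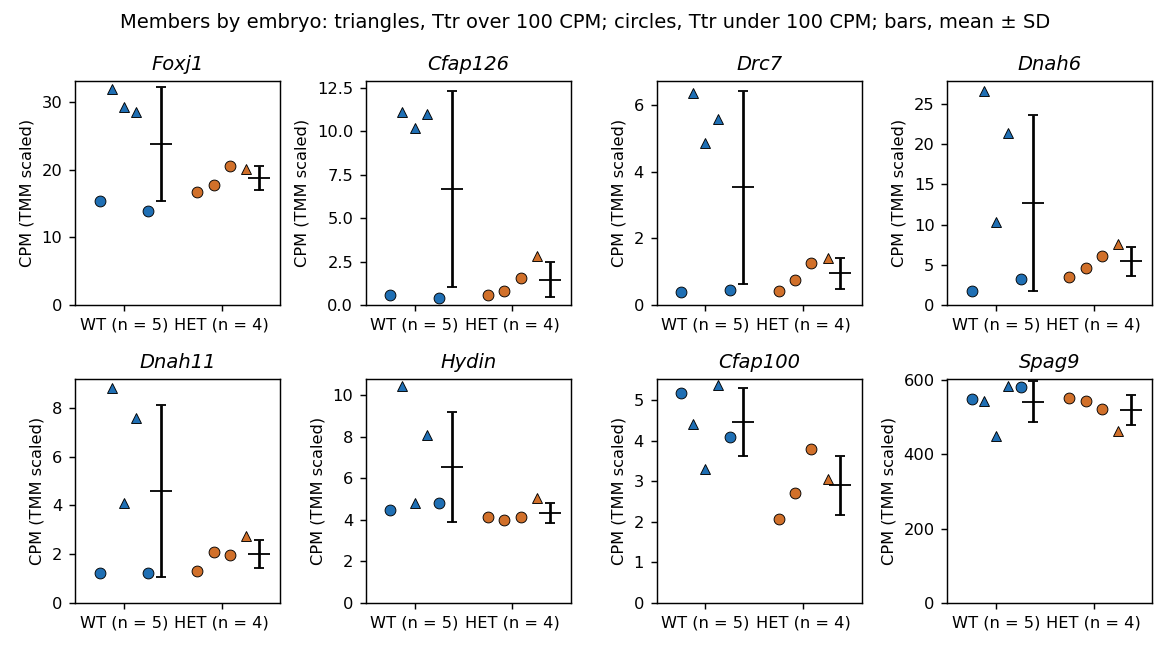
CPM of 8 members in each WT (blue, n = 5) and HET (orange, n = 4) embryo, with triangles for embryos with over 100 CPM of *Ttr*, circles for the others, and the mean with its SD as a black bar. Within WT, *Cfap126*, *Drc7*, *Dnah6* and *Dnah11* separate triangles from circles widely, *Foxj1* by 1.84 times and *Hydin* barely, and *Cfap100* and *Spag9* do not.

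Of the other cilia- and flagella-associated members, *Cfap126* (chr1:171113918-171126967, plus strand), a target of FOXJ1 that helps place the base of the cilium, had the widest division within WT. It was at 0.601 and 0.442 CPM in WT 5 and 43 and at 11.1, 10.2 and 10.95 CPM in WT 15, 16 and 41, a gap of 17.0 times between the nearest of these embryos. The HET embryos 5, 6, 7 and 24 had 0.585, 0.838, 1.57 and 2.82 CPM. Its log2 fold change of −2.19 (standard error 0.90, unadjusted p = 0.0343 from edgeR) was the lowest of all members, and it was 0.43 with the covariate and 0.94 in the embryos with little *Ttr*. *Cfap53* had 0.457, 3.94, 2.59, 3.69 and 0.464 CPM in WT and 0.585, 0.489, 0.682 and 0.845 CPM in HET, with a log2 fold change of −1.77 (unadjusted p = 0.0163 from edgeR) that was −0.14 with the covariate and 0.35 in the embryos with little *Ttr*. Here HET 24 was far under the high WT embryos.

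*Cfap57* had 0.914, 3.96, 1.87, 2.58 and 1.10 CPM in WT and 0.866, 1.03, 0.785 and 1.02 CPM in HET. No HET embryo lay above WT 43, and the log2 fold change of −1.18 (unadjusted p = 0.0117 from edgeR) was −0.43 with the covariate and −0.18 in the embryos with little *Ttr*. *Cfap20*, *Cfap36* and *Cfap97* were steady, at 61.2 to 70.5, 71.8 to 87.3 and 29.6 to 37.7 CPM over the 9 embryos.

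*Cfap100* (chr6:90403479-90428797, minus strand) did not show the *Ttr* order and was among the 16 members under 0 in all 3 fits. It had 5.17, 4.40, 3.31, 5.36 and 4.09 CPM in WT 5, 15, 16, 41 and 43 and 2.06, 2.701, 3.80 and 3.05 CPM in HET 5, 6, 7 and 24. WT 5, with the least *Ttr*, was close to the highest embryo, and only HET 7 lay above any WT embryo. HET against WT gave −0.62 on the log2 scale (standard error 0.20, adjusted p = 0.788 by edgeR). Without adjustment its p of 0.00964 by edgeR was the lowest of all members. It was −0.61 with the choroid plexus covariate and −0.69 among the embryos with little *Ttr*, and it stayed between −0.77 and −0.49 when each embryo was left out in turn. Of the 11 members with an unadjusted p under 0.05 it was the only one to keep such a p under both settings, and it did not pass the adjusted threshold under either.

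*Cfap52*, an inner microtubule protein chosen after its values were seen, was lower in HET over all embryos and higher under both other settings. It had 0.842 and 1.06 CPM in WT 5 and 43, 6.99, 6.55 and 6.35 CPM in WT 15, 16 and 41, and 1.62, 2.59, 3.35 and 3.26 CPM in the HET embryos. All HET embryos lay between the low and the high WT embryos. Its log2 fold change was −0.69 over all embryos, 0.87 with the covariate (adjusted p = 0.691 from edgeR) and 1.40 in the embryos with little *Ttr* (adjusted p = 0.999 from edgeR).

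Of the *Spag* members known outside cilia, *Spag9*, a scaffold of kinase signalling and transport, had 450.2 to 584.3 CPM in WT and 462.8 to 551.1 CPM in HET. *Spag5*, a protein of the mitotic spindle, had 54.3 to 79.5 CPM in WT and 44.1 to 71.3 CPM in HET, and *Spag7* had 50.7 to 64.4 CPM in WT and 49.7 to 53.7 CPM in HET. None of these followed *Ttr*. Per kilobase of exons, the level of *Spag9* was the highest of all 71 members, at 47.5 CPM per kilobase on average over the embryos. *Cfap36*, *Cfap20* and *Cfap300* had 28.2, 14.6 and 12.3 CPM per kilobase, *Foxj1* had 8.20, and *Drc7* and *Dnah6* had 0.798 and 0.714.

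Genes of the pathway outside the symbol rule were given by fixed lists. Of 66 other motile cilia genes tested, such as dynein docking, tektin and N-DRC genes, 0 were called. At an unadjusted p under 0.05 from edgeR, 14 were lower in HET. The log2 fold change was under 0 for 59, with a median of −0.54, and 28 had the *Ttr* order. Over all genes, 0.14% were called by edgeR, 3.09% were lower at such a p, 51.5% were under 0 and 3.11% had the *Ttr* order. In that list *Ropn1l* had a log2 fold change of −1.08 with an unadjusted p of 0.0127, and *Ttc29* had −2.38 with an unadjusted p of 0.0165, both from edgeR. Of 18 regulators of multiciliation, 0 were called and the median was −0.02. *Gmnc*, which acts upstream of *Mcidas*, had a log2 fold change of −1.15 (unadjusted p = 0.0189 from edgeR), with 2.55, 6.94, 5.29, 8.49 and 1.72 CPM in WT and 2.12, 2.45, 1.63 and 2.84 CPM in HET. That of *Cdc20b* was −1.11 and that of *Myb* was −0.24.

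Of 56 genes for transport into the primary cilium, 0 were called by edgeR and 44 were under 0. That lean in direction was shared with the members, at 62 of 70, against 51.5% of all genes. Of these 56 genes 2 had the *Ttr* order, near the 3.11% of all genes, and the median log2 fold change was −0.05. Their sum stayed between 2177 and 2376 CPM in all embryos. Within that list *Bbs2*, a subunit of the BBSome, was lower in every HET embryo than in any WT embryo, at 21.8 to 23.7 against 26.4 to 29.0 CPM. Such groups without overlap were found for 1 of the 56 genes, near the 1.85% of all genes. The log2 fold change of *Bbs2*, −0.27, had adjusted p values of 0.289 in edgeR's test and 0.0150 in that of DESeq2. *Bbs10* and *Wdr35* had log2 fold changes of −0.23 and −0.15.

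Only 2 members lie on chromosome 12 with *Npas3*. *Dnaaf2* is 15116912 bases away and *Dnah11* is 63805807 bases away. The 71 members are spread over 20 chromosomes, with 11 on chromosome 11.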

How the data were processed

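Poly(A) RNA of 9 forebrains was made into TruSeq libraries, sequenced on an Illumina HiSeq instrument, and analysed from 1 read of each pair. The authors aligned reads to GRCm38.p6 with STAR 2.7.9a and assigned them to genes of GENCODE M25 with featureCounts. The deposited values are raw read counts, not normalized. Settings for strand and for reads with several alignments are not given in the sources used here.

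Counts were scaled by TMM, filtered with filterByExpr (minimum count 10, leaving 17818 genes) and tested for HET against WT without covariates by the quasi-likelihood test of edgeR 4.0.16 in R 4.3.3, with Benjamini-Hochberg adjustment over all genes tested. The script was tested on simulated counts. DESeq2 1.42.0 and limma 3.58.1 (voom) were alternatives, as were DESeq2 size factors, no filter and a minimum count of 50, each embryo left out, the choroid plexus score (mean log2 of CPM plus 0.5 of 10 markers without *Ttr*) as a covariate, and the embryos with *Ttr* under 100 CPM alone. The common biological coefficient of variation was 16.8%.

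Members, gene lists and roles were chosen with earlier results of these data known. Genes named were *Foxj1*, *Mcidas*, *Hydin*, *Ccdc39* and *Ccdc40*, the 3 members of each role with the highest mean CPM, the 10 with the lowest unadjusted p, any member that was called or whose groups did not overlap, the called genes of the lists, and *Npas3* and *Ttr*. The 3 lowest p values were used for the lists of other motile cilia, multiciliation and primary cilium genes, but not for the marker lists. Others are said to be chosen after their values were seen. A gene of the lists that this rule names is not reported here. Coordinates are from GENCODE M21 on GRCm38, which held all 71 members. Depth covers counting error only. The p-values rest on separate embryos whose litters are not given.

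The lists also held markers of other cell types, with medians of the log2 fold change of 0.03 for 13 neuron, −0.06 for 10 radial glia, 0.06 for 8 astrocyte, −0.46 for 10 meningeal, −0.24 for 8 endothelial and 0.03 for 7 red blood cell markers tested. Of these *Fabp7* was called by edgeR (−0.86) and *Aqp4* by DESeq2 (−1.63).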

Additional observations from a re-analysis of the deposited data

Results flagged for a closer look

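Over 76 groups of 4 or 5 embryos, Dixon's criterion set 4 values apart, 3 in HET 24 and 1 in HET 7, about the 3.8 to come up by chance. HET 24 stood above the other HET embryos for *Ttr*, at 466.6 CPM against 2.47 to 11.7, for *Hydin*, at 5.05 CPM against 3.98 to 4.16, and for *Dnah9*, at 10.4 CPM against 8.40 to 8.72. For both members the level in HET 24 was under the WT mean, which was 6.53 CPM for *Hydin* and 12.8 CPM for *Dnah9*. HET 7 stood above the other HET embryos for *Npas3*, at 34.1 CPM against 27.8 to 28.2.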

How the results depend on the processing

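In each alternative run, 0 members were called. The count of all genes called was 25 in the test reported, 85 with DESeq2 and 15 in the embryos with *Ttr* under 100 CPM, and it ran from 14 (without HET 6) to 23 (without WT 5) when each embryo was left out. The median log2 fold change of the members stayed under 0 under every alternative except the choroid plexus covariate (0.08) and the embryos with little *Ttr* (0.15). It ran from −0.43 (without WT 5) to −0.17 (without WT 41) when each embryo was left out. The number of members with a log2 fold change under 0, 62 of 70, was 26 of 70 with that covariate and 17 of 67 in those embryos. The number of members at an unadjusted p under 0.05 moved from 11, all lower in HET, to 3 without WT 15, without WT 41 or without HET 5, to 4 without HET 6, to 6 without WT 16 or HET 7, and to 27 and 28 without WT 5 and WT 43. It was 4 with limma-voom, 15 with DESeq2 and 20 without a filter. With the choroid plexus covariate and in the embryos with little *Ttr* it was 6 each, of which 1 was lower and 5 were higher in HET. The number of members with the *Ttr* order was 26, 27 with CPM by total count and 20 with a minimum count of 50, where 58 members were tested. No paired analysis was possible because the groups share a single embryo number, which only names a sample. With little *Ttr*, 2 WT embryos stand against 3 HET embryos, so small differences could not be shown there.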
